A study of Mus musculus with 10 samples.

Results

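Long intergenic non-coding RNAs, which are transcribed from stretches between protein-coding genes, made up 33 of the 99 long non-coding RNAs (lncRNAs) that the study listed for the difference between young and aged mouse hearts. The members were chosen by their entry in that list, where the relationship to the nearest gene is given as intergenic, and the list itself was selected on the fold change and p-value between the same 10 arrays. The 33 members, out of 38282 lncRNA entries on the array, comprised 22 listed as downregulated and 11 listed as upregulated with age. The other 66 listed lncRNAs overlap a gene, lie antisense to one or share a start with one.

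Hearts came from male wild-type C57BL/6 mice, 5 at an age of 3 months (3m group) and 5 at 20 months (20m group), each mouse on 1 one-colour array and all housed singly. Both groups had echocardiography under isoflurane anaesthesia shortly before the hearts were taken, and no other treatment is stated. Young and elderly animals were bought from separate suppliers, and the effect of the supplier cannot be told apart from that of age. Levels are given as log2 of the quantile-normalized spot intensity with a floor of 5, which is 2.32 on the log2 scale, and differences are 20m minus 3m. Because 1 probe's brightness depends on its own sequence, levels were compared between hearts and not between genes.

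Long intergenic RNAs are usually capped and often spliced, are not translated into long proteins, and tend to be restricted to a few tissues. Some act on distant genes as scaffolds or decoys for proteins. Others act in place on neighbouring genes, through the RNA or through the act of transcription, and in the heart several are known from cardiac development and hypertrophy. Most members here carry only a clone, cDNA or locus name and have no established role. The exception is Crnde (colorectal neoplasia differentially expressed), named for its high level in tumours, which lies next to the gene of the homeobox transcription factor Irx5.

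On the array each member was read by 1 probe of 60 bases. A word of 8 bases, CCCTGCCC, stood in the probes of 7 of the 22 downregulated members and of none of the 11 upregulated ones. It is shown because it recurred among the members with the largest decreases. The sequences run 5′ to 3′ as the supplementary table prints them, with the word in capitals and any other word discussed here in capitals too, for all but 1 of the 7 probes.
Gm40841: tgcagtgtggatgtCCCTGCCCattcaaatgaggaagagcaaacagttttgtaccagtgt
4632404H12Rik: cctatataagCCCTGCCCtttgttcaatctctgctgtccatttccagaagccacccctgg
AK140170: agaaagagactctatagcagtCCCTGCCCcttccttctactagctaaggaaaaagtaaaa
AK013270: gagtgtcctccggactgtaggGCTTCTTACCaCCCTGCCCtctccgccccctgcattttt
mouselincRNA0344: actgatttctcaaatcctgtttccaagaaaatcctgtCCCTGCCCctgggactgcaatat
AK020372: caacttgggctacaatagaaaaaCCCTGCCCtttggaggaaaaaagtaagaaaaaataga

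The word began between base 11 and base 38 of the probe, so its place was not fixed. The seventh probe with it, that of XLOC_011520, belongs to the third largest decrease. Among the other listed lncRNAs 9 of 48 downregulated and 0 of 18 upregulated probes held the word, and among the 690 probes named in the study's further sheet of downregulated mRNAs 13 did (1.88%). Its reverse complement, GGGCAGGG, was in none of these 789 probes. Cut into windows of 60 bases, the RefSeq promoters of GRCm38.p6 held the word in 0.460% and its reverse complement in 0.505% of 164255 windows. These windows are genomic sequence and not probes, so they give no background rate for probes. The share over all lncRNA probes of the array was not counted. The log2 difference of the 7 members with the word ranged from -5.56 to -3.15 (median -4.44), and that of the 15 downregulated members without it from -3.84 to -2.47 (median -2.77). The word was picked after the sequences and the differences had been seen, so these numbers describe the list and were not tested. None of the 14 RefSeq promoters of 13 members held the word on either strand, against 5.19% of all 32851 promoters. Of the 7 members with the word in their probe, only 4632404H12Rik had such a promoter. At a share of 5.19%, 14 promoters are too few to read anything from finding none.

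Smaller sets of members shared other words, which were found in the same way. The stretch GGTAAGAAGC stood in AK155692 and AI197445, and its reverse complement in AK013270 above, whereas no other listed lncRNA probe and none of the 690 mRNA probes had it in either direction. The stretch ACATCCTAAG stood in the upregulated 1700041M19Rik and humanlincRNA0728 and in the downregulated 4930584F24Rik, so it did not follow the direction of the change.
AK155692: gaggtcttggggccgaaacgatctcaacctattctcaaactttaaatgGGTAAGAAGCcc
AI197445: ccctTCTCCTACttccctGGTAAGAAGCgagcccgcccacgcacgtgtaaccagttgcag
1700041M19Rik: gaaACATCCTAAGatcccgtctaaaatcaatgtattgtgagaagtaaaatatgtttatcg
humanlincRNA0728: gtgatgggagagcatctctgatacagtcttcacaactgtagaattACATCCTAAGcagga
4930584F24Rik: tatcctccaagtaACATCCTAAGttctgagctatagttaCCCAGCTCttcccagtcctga

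The word CCCAGCTC in the last of these probes recurred in Gm40709 and Crnde, and TCTCCTAC in the AI197445 probe recurred in 1110002J07Rik and Crnde. Each was thus in 3 of the 22 downregulated members and in 0 of the other 77 listed lncRNAs. Of the 690 mRNA probes, 4 held CCCAGCTC, 1 its reverse complement, 1 TCTCCTAC and 1 ACATCCTAAG. Over all pairs of the 32 members compared in this way the longest shared stretch was 12 bases, so no pair of probes was a near copy of another.

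Every member passed the detection filter, which required the software's mark for a signal well above background on 5 or more arrays and which 64.1% of all lncRNA entries passed. On all 10 arrays 25 members were well above background, 19 of the 22 downregulated and 6 of the 11 upregulated. Among the other 66 listed lncRNAs the number was 42, and among all lncRNA probes tested the share was 79.4%. The members that missed it were dim in the age group where they were low. Of the downregulated members, Gm2694 and AK020551 were well above background in 1 of 5 aged hearts and XLOC_006216 in 2 of 5. Of the upregulated members, Gm35548 was so in 4, Gm43356 in 3, 1700041M19Rik and 4930553M12Rik in 1 and humanlincRNA0728 in 0 of 5 young hearts, and every upregulated member was so in all 5 aged hearts. For humanlincRNA0728 the filter itself required all 5, and for 1700041M19Rik and 4930553M12Rik it required nearly all. For humanlincRNA0728 only an approximate bound on the difference can be given.

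Because the list was chosen for this contrast, the differences between ages are described here without a test. Of all 24522 lncRNA probes tested with limma, 5.20% were called higher and 6.35% lower at 20 months at a Benjamini-Hochberg adjusted p under 0.05 and a log2 difference of at least 1, and all 11 upregulated and all 22 downregulated members were among them, as their selection required. In 22.0% of the tested lncRNA probes the 2 age groups did not overlap, and this held for all 33 members. The log2 difference ranged from -5.56 to -2.47 (median -3.39) in the downregulated members and from 2.51 to 4.25 (median 2.75) in the upregulated members. With humanlincRNA0728 at its approximate bound of 1.86, described further on, the upregulated median was also 2.75. The medians were -2.92 and 2.77 in the other listed lncRNAs (48 downregulated and 18 upregulated) and 0.12 over all lncRNA probes tested. In whole tissue, fewer cells of a type and less RNA per cell cannot be told apart. Of 23 marker genes sought for cardiomyocytes, other heart cells and known cardiac lncRNAs, 0 had a probe named in the files used here, so the tissue label could not be checked by markers.

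**Figure D1:**
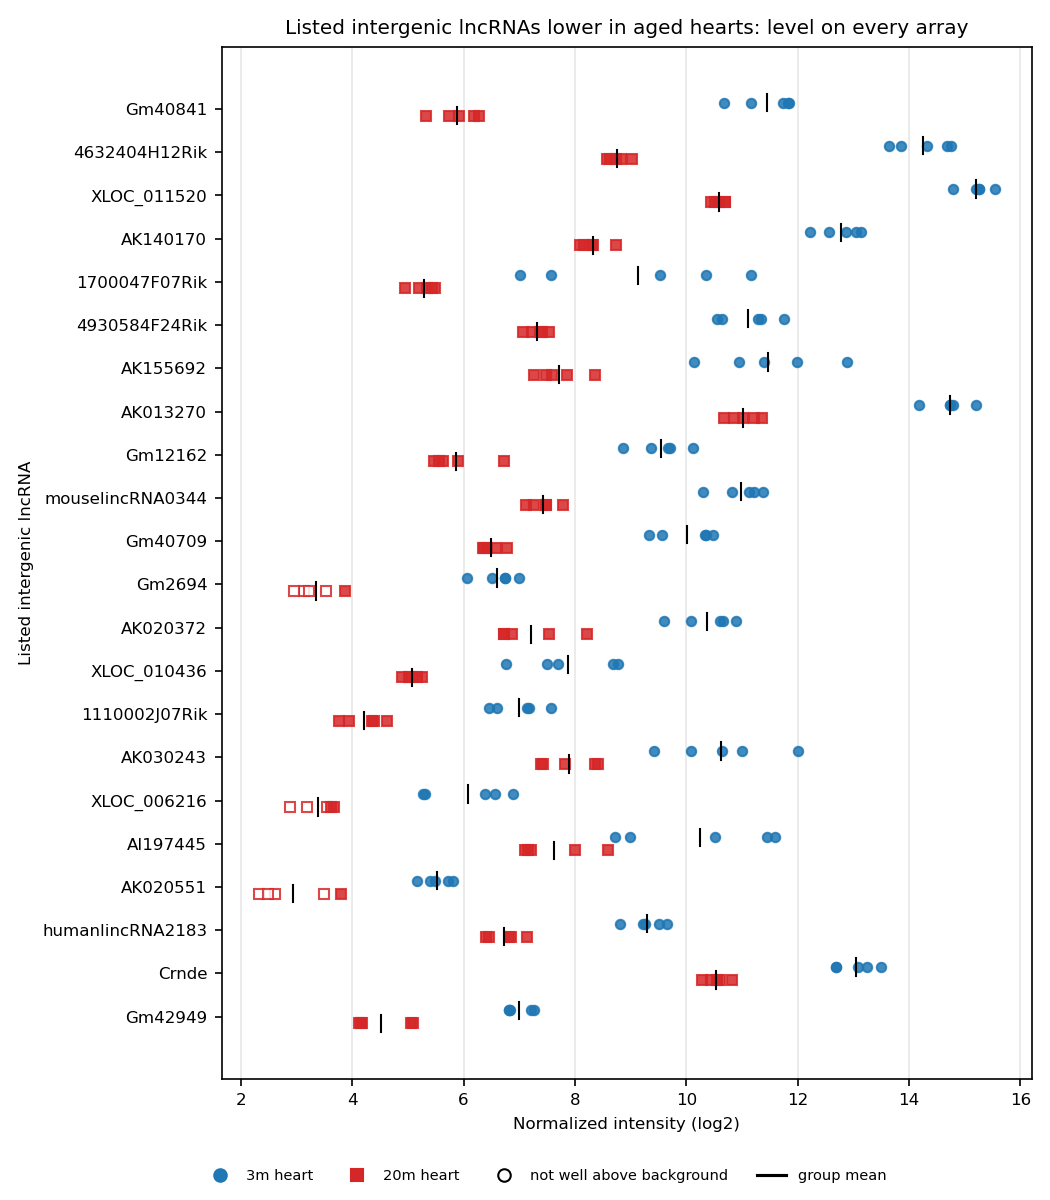
Normalized intensity (log2, horizontal axis) of the 22 downregulated members in each of the 5 young (circles) and 5 aged (squares) hearts, with a black bar at the group mean and open symbols for values not well above background. In every row the circles lie to the right of the squares, and the gap between the groups ranges from 0.12 in AI197445 to 4.62 in 4632404H12Rik.

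The largest decrease was at Gm40841, a predicted lncRNA gene with an annotated RNA of 3989 bases on chromosome 13 (28394453 to 28420066, minus strand, on coordinates that match GRCm38). Its level was 11.16, 11.85, 11.74, 11.82 and 10.69 in young hearts (replicates 1 to 5, the order used throughout) and 5.92, 6.27, 6.19, 5.32 and 5.74 in aged hearts. The means were 11.45 ± 0.51 and 5.89 ± 0.38 (SD, n = 5 each), a log2 difference of -5.56 (SE 0.26) or 47.3-fold. Young replicates 1 and 5 were the lowest of the young group and still lay more than 4 log2 units above the highest aged heart. The lead over the next member, 4632404H12Rik (-5.49, SE 0.22), was small beside the SE. On the slide that held both ages the order turned (-5.53 for Gm40841 and -5.67 for 4632404H12Rik).

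At 4632404H12Rik (chromosome 3, 89768121 to 89772791, minus strand), which lies between the nicotinic receptor subunit gene Chrnb2 and the ubiquitin-conjugating enzyme gene Ube2q1, the level was 13.64, 14.32, 14.76, 14.69 and 13.86 in young hearts and 8.58, 8.83, 8.64, 8.75 and 9.02 in aged hearts. The means were 14.25 ± 0.50 and 8.76 ± 0.17 (SD, n = 5 each), 44.9-fold apart. The aged hearts were close together and the young hearts spread over 1.12 log2 units, with replicates 1 and 5 again lowest. XLOC_011520, a transcript model that overlaps the RefSeq lncRNA gene C030004G16Rik, read 15.20, 15.55, 15.26, 15.25 and 14.79 in young hearts and 10.52, 10.58, 10.70, 10.45 and 10.70 in aged hearts, a log2 difference of -4.62 (SE 0.16). Within both ages it was the tightest of the large decreases, with SDs of 0.27 and 0.11.

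AK140170, a cDNA entry on chromosome 3 (17852629 to 17853401, plus strand), read 12.57, 13.05, 12.86, 13.14 and 12.22 in young hearts and 8.33, 8.30, 8.74, 8.16 and 8.09 in aged hearts (log2 difference -4.44, SE 0.20). Among young hearts it too was lowest in replicates 5 and 1. 1700047F07Rik (chromosome 4, 107707057 to 107708644, plus strand), close to the gene of the DM-domain protein Dmrtb1, differed from the rest by its spread. Its young hearts read 7.56, 11.17, 9.53, 10.36 and 7.02 (SD 1.78), the widest spread of any member, against 5.34, 4.95, 5.20, 5.43 and 5.49 in aged hearts (SD 0.22). The log2 difference was -3.84 (SE 0.65), and the lowest young heart stayed 1.52 above the highest aged heart.

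Crnde (chromosome 8, 92326038 to 92356120, minus strand), the member with a name of its own, read 12.69, 13.50, 13.09, 13.25 and 12.69 in young hearts and 10.54, 10.29, 10.44, 10.60 and 10.82 in aged hearts. The means were 13.05 ± 0.35 and 10.54 ± 0.20 (SD, n = 5 each), a log2 difference of -2.51 (SE 0.19) or 5.68-fold, and all young hearts were above all aged hearts. A second Crnde entry, a shorter transcript model of the same strand, stood just outside the list. It read 12.86, 13.58, 13.13, 13.32 and 12.89 in young hearts and 10.88, 10.57, 10.67, 10.88 and 11.02 in aged hearts (log2 difference -2.35, SE 0.18). Both entries were lowest in young replicates 1 and 5 and highest in young replicate 2. They are no independent measures of the gene, because 45 of the 60 bases of their probes are the same stretch, printed in capitals.
Crnde: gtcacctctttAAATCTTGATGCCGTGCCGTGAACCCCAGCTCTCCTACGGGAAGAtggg
Crnde, second entry: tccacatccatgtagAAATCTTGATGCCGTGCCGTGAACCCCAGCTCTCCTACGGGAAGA

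The smallest decrease inside the list was at Gm42949 (chromosome 3, 151333349 to 151337638, plus strand). Young hearts read 6.83, 6.82, 7.27, 7.21 and 6.83 and aged hearts 4.16, 4.18, 4.12, 5.10 and 5.06, a log2 difference of -2.47 (SE 0.23). Aged replicates 4 and 5 stood about 1 log2 unit above the other three aged hearts. Just outside the list, besides the second Crnde entry, were the intergenic entries AK005652 (log2 difference -2.40), humanlincRNA0183 (-2.37) and Gm34623 (-2.33), each well above background in all 10 hearts. Inside and outside entries thus differed by 0.07 log2 units at the boundary.

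The remaining 15 downregulated members lay between these extremes, with log2 differences from -3.79 to -2.56. AK013270, AK155692, 4930584F24Rik, Gm12162, mouselincRNA0344, Gm40709, Gm2694 and AK020372 fell in the range of 8.90-fold to 13.8-fold. For XLOC_010436, 1110002J07Rik, AK030243, XLOC_006216, AI197445, AK020551 and humanlincRNA2183 the decrease was 5.88-fold to 6.99-fold. For Gm2694, XLOC_006216 and AK020551 the aged level rests mostly on values not well above background, and with a floor of 20 their log2 differences were -2.29, -1.76 and -1.20.

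**Figure D2:**
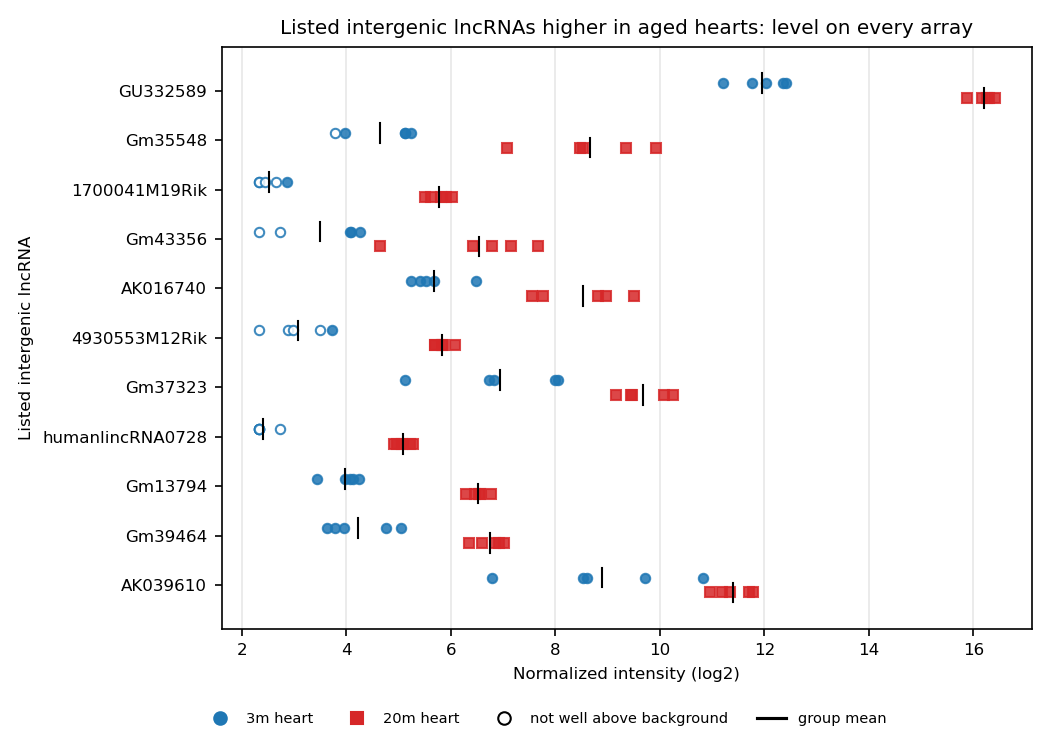
Normalized intensity (log2, horizontal axis) of the 11 upregulated members in each young (circles) and aged (squares) heart, with a black bar at the group mean and open symbols for values not well above background. Aged hearts lie to the right in every row, but in AK039610 the groups are only 0.15 apart, and open symbols occur in young hearts alone, in 5 members.

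The largest increase was at GU332589, the only member on the mitochondrial genome (M, 1094 to 2681, minus strand). Its level was 12.36, 11.21, 12.04, 11.76 and 12.40 in young hearts and 16.42, 16.29, 16.17, 16.26 and 15.87 in aged hearts. The means were 11.96 ± 0.49 and 16.20 ± 0.20 (SD, n = 5 each), a log2 difference of 4.25 (SE 0.22) or 19-fold. All aged hearts were more than 3 log2 units above all young hearts. Although listed as intergenic, this interval starts at the first base of mt-Rnr2, the gene of the large mitochondrial ribosomal RNA (1094 to 2675 in RefSeq), and runs on into the adjoining TrnL1, a leucine tRNA gene. The methods state that ribosomal RNA was removed before labelling. The RefSeq table used gives no strand for these genes, so whether the minus-strand member runs along or against them was not settled. The probe is shown because its interval coincides with an annotated ribosomal RNA gene.
GU332589: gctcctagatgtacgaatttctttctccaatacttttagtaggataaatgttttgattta

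Gm35548 (chromosome 9, 82249931 to 82260208, minus strand), next to the meiosis gene Mei4, read 3.97, 3.79, 5.12, 5.11 and 5.24 in young hearts and 8.52, 8.46, 9.93, 9.35 and 7.07 in aged hearts (log2 difference 4.02, SE 0.47). Aged replicate 5 was the lowest aged heart, 1.83 above the highest young heart. 1700041M19Rik (chromosome 16, 76985998 to 77010879, minus strand), beside the deubiquitinase gene Usp25, read 2.32, 2.32, 2.44, 2.65 and 2.87 in young hearts, at or near the floor, and 5.50, 5.90, 5.62, 6.03 and 5.82 in aged hearts (log2 difference 3.25, SE 0.17). The signal was well above background in young replicate 5 alone among the young hearts, so the size of this difference depended on the floor, and with a floor of 20 it was 1.45.

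Gm43356 (chromosome 3, 136952790 to 136955093, minus strand) lies 15063 bases from Ppp3ca, which encodes the catalytic subunit of calcineurin, a phosphatase of hypertrophic signalling. It read 2.73, 2.32, 4.26, 4.07 and 4.09 in young hearts and 6.42, 7.16, 7.66, 6.79 and 4.65 in aged hearts (log2 difference 3.04, SE 0.53, and 2.21 with a floor of 20). It was not well above background in young replicates 1 and 2. Aged replicate 5 was again lowest and only 0.39 above the highest young heart. AK016740 (chromosome 3, 57227724 to 57229178, minus strand) read 5.41, 5.24, 5.53, 5.68 and 6.48 in young hearts and 8.82, 8.97, 9.51, 7.56 and 7.76 in aged hearts (log2 difference 2.86, SE 0.36). Here aged replicates 4 and 5 were the lower pair, and the groups did not overlap.

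humanlincRNA0728, an entry carried over from a human lincRNA (chromosome 12, 81813980 to 81814572, minus strand), read 2.32, 2.32, 2.32, 2.74 and 2.32 in young hearts, not well above background in any of them, and 4.91, 4.96, 5.28, 5.06 and 5.22 in aged hearts. Set against the dimmest signal of each young array that was still marked well above background (3.23 on average), the aged mean was 3.62-fold higher. On the log2 scale this is 1.86. The bound is approximate, because the dimmest signal was taken over all probes and is not the detection limit of this one. The fitted log2 difference was 3.61 with a floor of 1. It lay below the bound with a floor of 20 (0.76) and after normexp background correction of the median intensities (0.62).

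At the weak end, Gm39464 (chromosome 9, 122047088 to 122052647, plus strand) read 5.04, 3.95, 3.63, 3.78 and 4.76 in young hearts and 6.92, 6.59, 6.35, 6.84 and 7.01 in aged hearts (log2 difference 2.51, SE 0.27). AK039610 (chromosome 7, 7122159 to 7123843, plus strand), beside the zinc finger genes Zfp954 and Zfp773, read 9.71, 6.79, 8.60, 8.52 and 10.82 in young hearts and 11.18, 10.97, 11.34, 11.79 and 11.70 in aged hearts (log2 difference 2.51, SE 0.56). Its young hearts spread over 4.03 log2 units, and young replicate 5 came within 0.15 of the lowest aged heart. The other 3 upregulated members, Gm37323, 4930553M12Rik and Gm13794, increased 5.88-fold to 6.73-fold. The 6.73-fold is that of 4930553M12Rik, which lies between the interferon genes Ifna1 and Ifne and was well above background in 1 of 5 young hearts. Its log2 difference was 2.75, and 1.51 with a floor of 20.

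Members varied more among young hearts than among aged hearts. The SD of the log2 level was larger in the 3m group for 25 of the 33 members, 17 downregulated and 8 upregulated, beside 56.1% of all lncRNA probes tested. The median SD was 0.50 in young and 0.31 in aged hearts over the members and 0.33 and 0.29 over all lncRNA probes tested. In young hearts 7 members spanned more than 2 log2 units, beside 2.65% of all lncRNA probes tested, and in aged hearts 2 members did, Gm35548 and Gm43356. Young hearts lay on 2 slides and aged hearts on 1, so only the young SD holds any difference between slides. Over the 3 young hearts on the slide of the aged hearts the median SD was 0.45 over the members and 0.18 over all lncRNA probes tested, and the SD exceeded that of the aged hearts for 21 of the 33 members, beside 25.9% of all lncRNA probes tested. No test was made of these differences in spread, since the spread entered the p-value used for listing.

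The downregulated members tended to move together from one young heart to another. In young replicate 1, 20 of the 22 lay below their own 3m mean (median deviation -0.50), and in young replicate 5, 18 did (median -0.41). In young replicates 2, 3 and 4, only 5, 4 and 1 of them lay below it (medians 0.35, 0.16 and 0.37). The same 2 hearts were low for the other 48 listed downregulated lncRNAs, of which 33 and 40 lay below their mean, whereas over all lncRNA probes tested the shares below were 51.6% and 45.4%. Among aged hearts the medians of the downregulated members ran from -0.15 to 0.27. Of the 11 upregulated members 5, 1, 5, 6 and 8 lay above their 3m mean in young replicates 1 to 5 (median deviations -0.08, -0.28, -0.08, 0.01 and 0.45). Replicates 1 and 5 were on different slides.

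**Figure D3:**
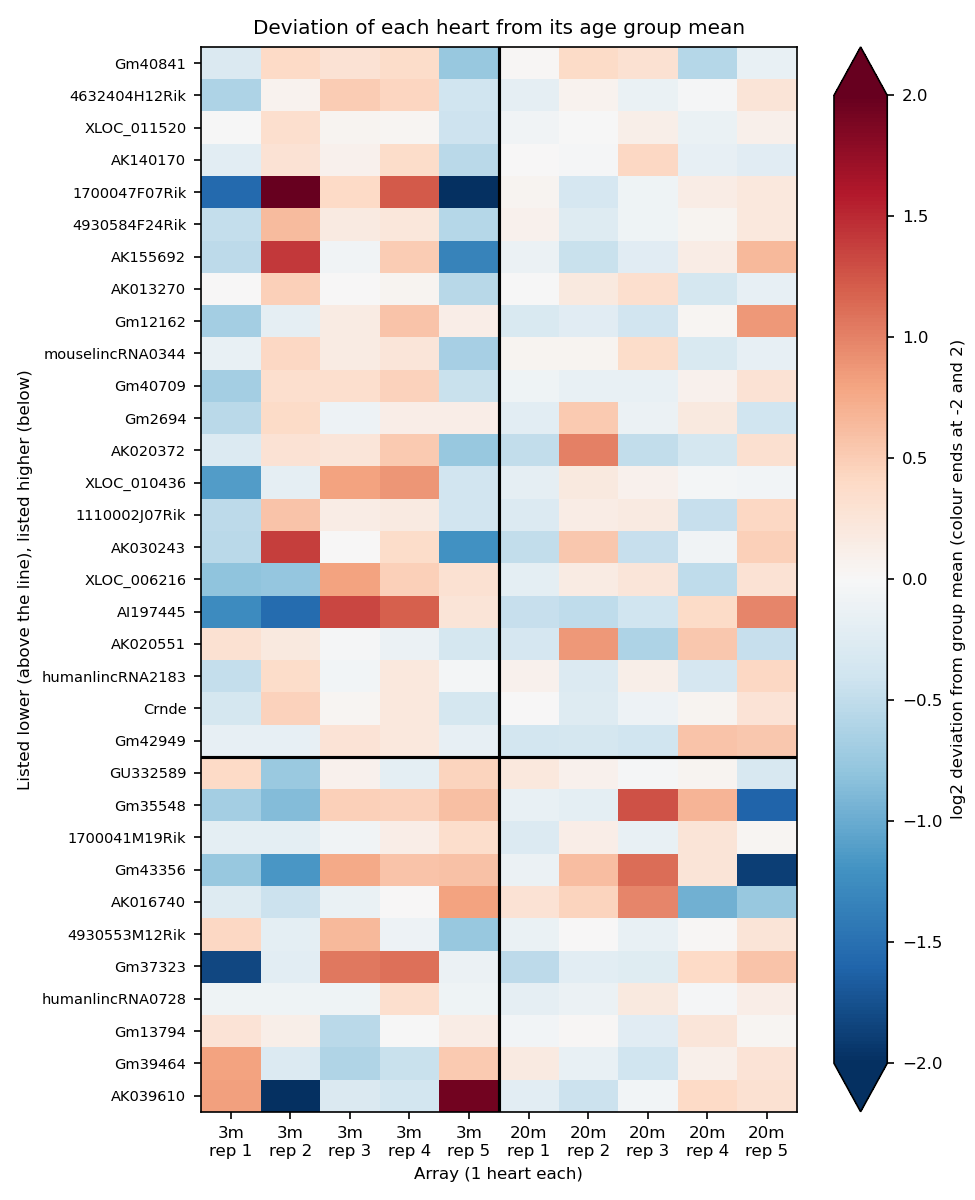
Deviation of each heart from the mean of its age group (colour, log2, ending at -2 and 2) for the 22 downregulated members above the horizontal line and the 11 upregulated members below it, with the 5 young hearts left of the vertical line and the 5 aged hearts right of it. Columns 3m rep 1 and 3m rep 5 are mostly blue in the upper block, where 20 and 18 of 22 members lie below their group mean.

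The arrays were read on 2 slides. Slide 1 held young replicates 1 and 2, and slide 2 held young replicates 3 to 5 and all aged hearts. The spread between young hearts entered the p-value used for listing, so the members' slide differences are given as a description. Within young hearts limma called 4830 of the 24522 lncRNA probes tested (19.7%) at an adjusted p under 0.05, 3624 of them lower on slide 1, and 3 of the 33 members, all lower on slide 1. Nothing is read from the members' share for the same reason. Of the other 66 listed lncRNAs 14 were called.

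AI197445 (chromosome 13, 107469822 to 107482718, plus strand) read 8.99 and 8.72 in the young hearts of slide 1 and 11.59, 11.45 and 10.51 in those of slide 2, a log2 difference of -2.33 (SE 0.46). Its aged hearts, all on slide 2, read 7.16, 7.11, 7.22, 8.01 and 8.60, so young replicate 2, on slide 1, came within 0.12 of the highest aged heart. XLOC_006216 (chromosome 13, 66161347 to 66168976, plus strand, overlapping the pseudogene Gm17514 and, within its interval, the protein-coding gene Gm45965) read 5.27 and 5.30 on slide 1 and 6.89, 6.56 and 6.38 on slide 2 (difference -1.32, SE 0.25). Gm37323 (chromosome 1, 4583129 to 4586252, minus strand) read 5.12 and 6.73 on slide 1 and 7.99, 8.04 and 6.83 on slide 2 (difference -1.70, SE 0.51). With 2 and 3 hearts, a slide and the hearts on it cannot be told apart. Without young replicate 1, which leaves slide 1 with 1 young heart assumed to vary like the others, 0 of the 33 members and 747 lncRNA probes were called.

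**Figure D4:**
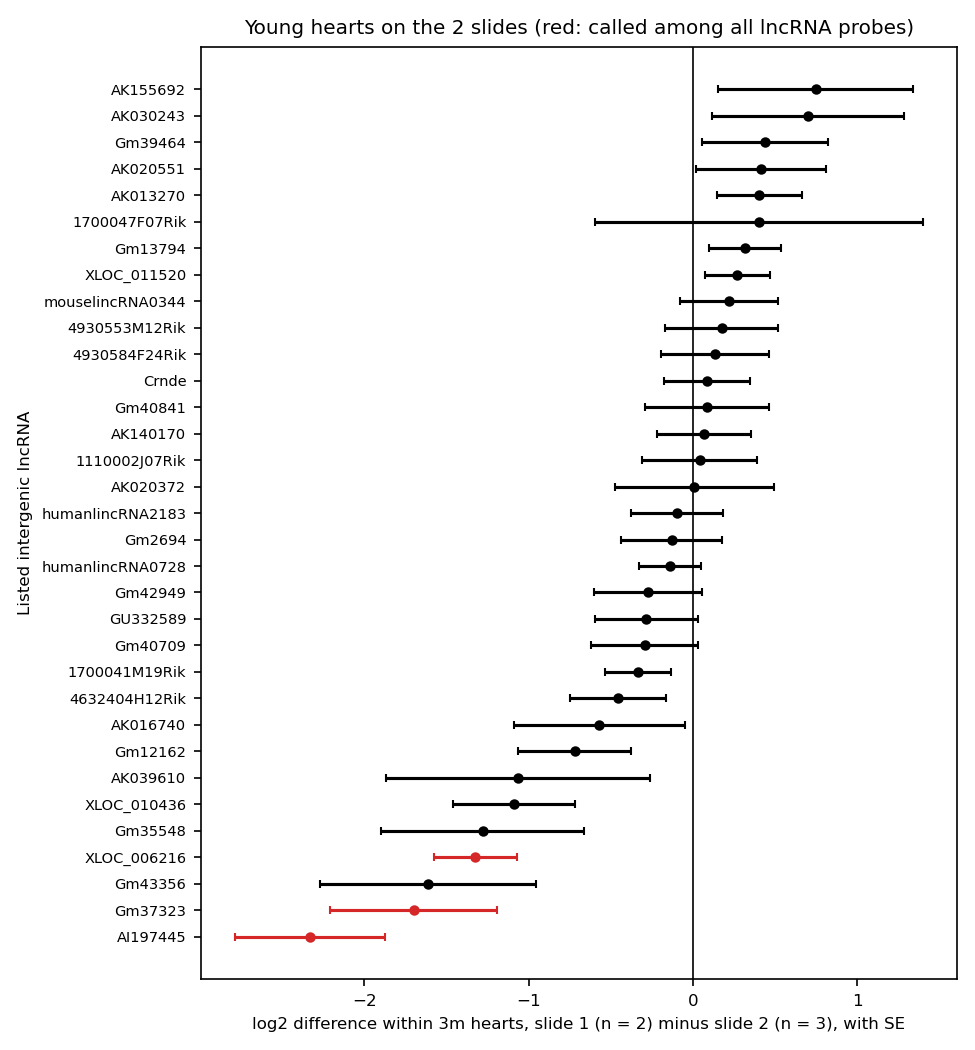
Difference in log2 level between young hearts on slide 1 (n = 2) and slide 2 (n = 3) for each member, with its standard error as the horizontal bar. The 3 red members, AI197445, Gm37323 and XLOC_006216, were called by limma among all lncRNA probes, and AI197445 has the largest difference, -2.33. Gm43356 (-1.61), between Gm37323 and XLOC_006216, was not called.

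On slide 2 alone, with 3 young and 5 aged hearts, the log2 difference between ages ranged from -5.67 to -2.41 (median -3.46) in the downregulated members and from 2.06 to 4.13 (median 2.68) in the upregulated members. AI197445 (-3.57) and XLOC_006216 (-3.23) were further apart than over all arrays, and Gm37323 (2.06), Gm43356 (2.40) and AK039610 (2.08) were closer. All kept their direction. A second array property moved with age and with the slide. The log2 ratio of the signals at the 3′ and 5′ ends of the GAPDH control was 1.70 to 1.71 in the young hearts of slide 1, 2.14 to 2.17 in those of slide 2 and 2.33 to 3.06 in aged hearts. The ratio did not overlap between the ages, so it can hardly be told apart from age. The same ratio of the PGK1 control was 8.04 to 8.63 in young and 8.97 to 9.27 in aged hearts. With the GAPDH ratio as a covariate 896 lncRNA probes were called higher and 846 lower (1274 and 1556 without it). Members still called were 8 of 11 upregulated and 20 of 22 downregulated. Gm43356 (1.20), Gm37323 (2.10), AK039610 (2.09), 1700047F07Rik (-3.42) and AK030243 (-2.14) were not called. For 1700047F07Rik the SE rose from 0.65 to 1.11. Among those still called, Gm35548 went from 4.02 to 2.55, AK016740 from 2.86 to 1.62 and XLOC_006216 from -2.70 to -3.67. The part of the ratio in the differences was not tested.

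With normexp background correction of the median intensities the log2 difference shrank by a factor of over 1.5 in the members named here. It was then 2.51 for Gm35548, 1.15 for Gm43356, 1.06 for Gm39464 and 1.01 for Gm13794 among the upregulated members. Among the downregulated ones it was -1.76 for XLOC_010436, -1.25 for 1110002J07Rik, and -1.20 for both Gm2694 and Gm42949. The members that fell below a log2 difference of 1 in size were 1700041M19Rik (0.83), 4930553M12Rik (0.79), XLOC_006216 (-0.95) and AK020551 (-0.70), besides humanlincRNA0728.

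**Figure D5:**
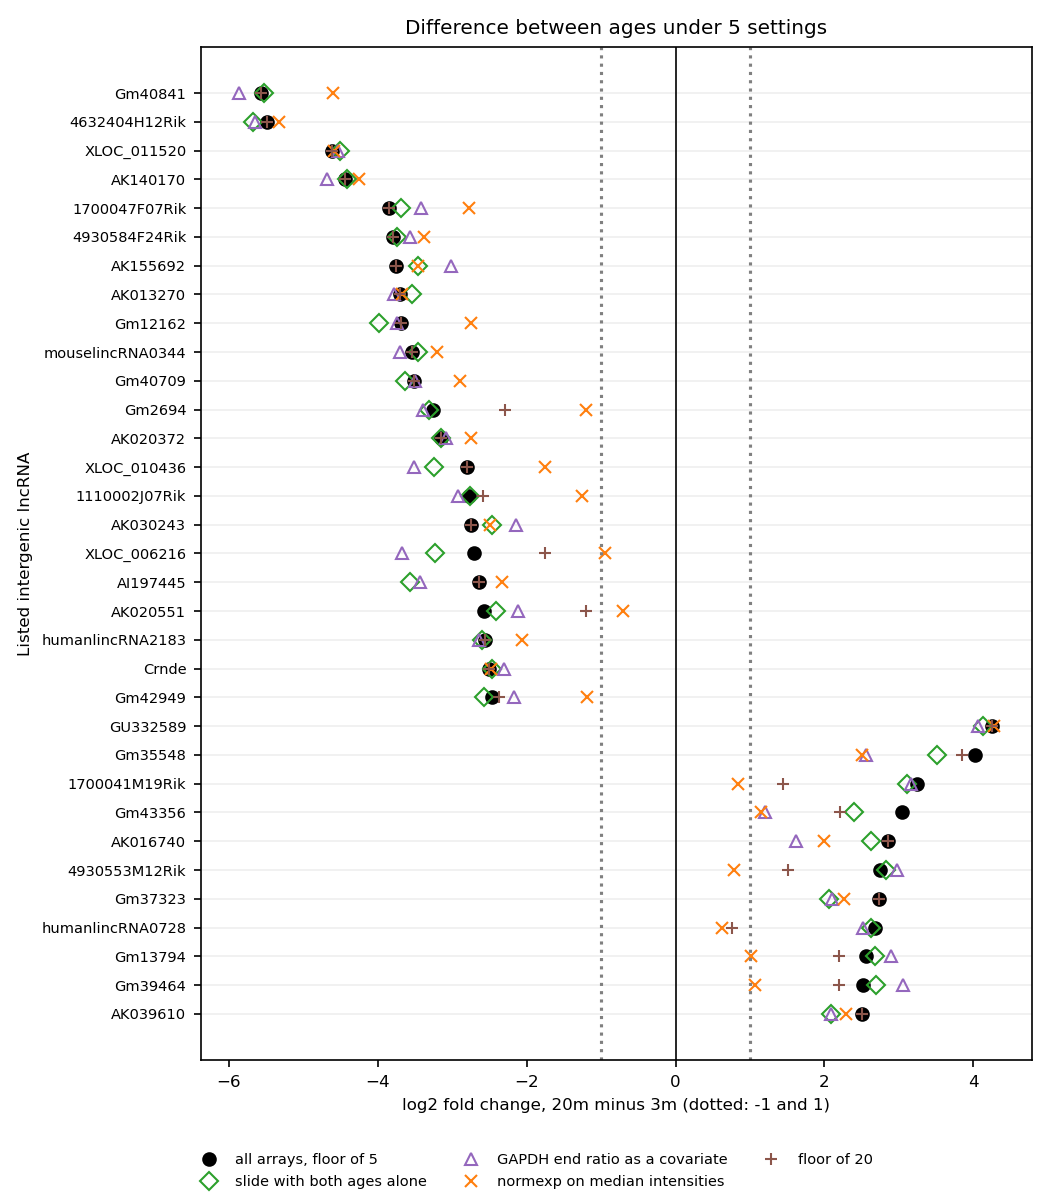
Log2 difference between ages (20m minus 3m, horizontal axis) of every member over all arrays with a floor of 5 (black circles), on the slide with both ages alone (diamonds), with the GAPDH end ratio as a covariate (triangles), after normexp background correction of the spots' median intensities (crosses) and with a floor of 20 (plus signs). No point crosses 0, and the crosses lie nearest to 0 in dim members such as humanlincRNA0728, where the fitted value of 2.68, which is no measured size because the young group was below background, became 0.62.

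For 2 of the 3 members taken from the lincRNA catalogue a probe for the opposite strand was found by its name, and it was set beside the listed one. For mouselincRNA0344 (chromosome 12, 100529800 to 100535875) the listed minus-strand probe read 10.31 to 11.38 in young and 7.12 to 7.79 in aged hearts, whereas the plus-strand probe was at the floor, 2.32, in all 10. For humanlincRNA2183 (chromosome 16, 15367846 to 15391172) the listed plus-strand probe read 8.81 to 9.66 and 6.40 to 7.14, and the minus-strand probe was at the floor in all 10 as well. Levels of different probes are not comparable, but neither opposite-strand probe was well above background in any heart. Of the 852 such probe pairs on the array, 395 had only 1 strand and 109 had both strands well above background on 5 or more arrays.

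The members were spread over 18 chromosomes, counting the mitochondrial one, with 5 on chromosome 3, 4 on chromosome 13 and 3 on chromosome 4. They were transcribed from the plus strand in 15 cases and from the minus strand in 18. Annotated RNA length ran from 127 bases (Gm12162) to 23326 bases (humanlincRNA2183), with medians of 935.5 bases in the downregulated and 1454 bases in the upregulated members and of 570.5 and 703 bases in the other listed lncRNAs. The GC content of the probe had a median of 45.0% and 38.3% in downregulated and upregulated members, and of 51.7% and 42.5% in the other listed lncRNAs. In RefSeq of GRCm38.p6, 14 members overlapped a gene of their own name, 5 overlapped only genes of another name (in 1 of them, XLOC_006216, also a protein-coding gene) and 14 overlapped none.

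Within 100 kb, 24 of the 33 members had a neighbouring protein-coding gene, and 7 had one within 1 kb. Gm40709 began 74 bases from Agpat3, an acyltransferase of phospholipid synthesis, Gm2694 lay 220 bases from the synaptic organiser gene Cbln1, and Crnde 1676 bases from Irx5. Only 3 of these neighbours had a probe named in the tables used, and the tables name probes of downregulated mRNAs alone, so the direction of these 3 was fixed by that choice. Next to AK013270, at 286 bases, Foxd3, a forkhead transcription factor of neural crest and stem cells, had a mean level of 6.34 ± 0.44 in young and 4.12 ± 0.47 in aged hearts (SD, n = 5 each). Next to AK020372, at 95 bases, Luc7l2, a splicing factor gene, read 4.92 ± 0.55 and 3.00 ± 0.55, with 1 of 5 aged hearts well above background, and a Luc7l2 probe among the listed lncRNAs 9.86 ± 0.44 and 6.67 ± 0.87. Snrk, a kinase gene 64619 bases from the upregulated Gm39464, read 8.86 ± 0.08 and 7.38 ± 0.80. So 2 of the 3 neighbours differed between ages in the direction of their member and Snrk in the opposite direction.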

How the data were processed

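Heart RNA of 10 mice was measured on Arraystar lncRNA arrays, 1 mouse per array. The authors deposited the scanner intensity of each spot, background-subtracted by Agilent Feature Extraction (version 11.0.1.1 per the file headers, 9.1 per the submitters' notes), and a table of log2 values after quantile normalization. The members and word lists were chosen with earlier results of these data known. Members, positions and probe sequences come from the study's supplementary list, and none of its fold changes or p-values were used.

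The 60641 probes' intensities were put on a common distribution by quantile normalization, raised to 5 where lower, and taken to log2 (99.8% of values within 0.2 of the authors' log2 table). Outlier spots (0 to 14 per array) were set to missing, and no member was affected. Probes marked well above background on 5 or more arrays were fitted with limma 3.58.1 in R 4.3.3, with p-values adjusted by the Benjamini-Hochberg method over the 24522 lncRNA probes. The script was checked on simulated data. Between 61.3% and 73.3% of probes were well above background per array, and no spot was saturated. Arrays give no count depth, and their number limits the precision. The comparisons were 20m against 3m and slide 1 against slide 2 within young hearts. Values on every array are given for the 5 largest and 2 smallest differences in each direction, for members not above background in an age group, for Crnde and for members with an outlying heart, and in addition for the 3 members that differed between slides. Neighbours were taken from RefSeq GRCm38.p6. The headers name an older build for the probe grid, and the listed positions were compared with RefSeq by gene name. Alternatives covered scaling, background correction, floor, detection filter, test, blocks, a covariate and each array left out. Python 3.11.15 (pandas 2.3.3, matplotlib 3.10.9) was used for the member tables and figures.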

Additional observations from a re-analysis of the deposited data

Results flagged for a closer look

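Each member was examined in each age group for a heart far from the other 4, by the gap to the nearest heart as a share of the group's range. Over the 66 groups of 5 hearts 1 stood apart, where chance alone marks about 1 group in 20. humanlincRNA0728 read 2.74 in young replicate 4 and was at the floor, 2.32, in the other 4 young hearts, so the gap made up the whole range (ratio 1). None of these 5 young values was well above background.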

How the results depend on the processing

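No member changed direction under any alternative. Values moved by more than the spread between hearts for 19 of 33 members with normexp background correction of median intensities, 7 with a floor of 20, 7 with the GAPDH covariate and 2 with a floor of 1, and for none with other scalings, the authors' table, slide 2 alone or an array left out. The normexp setting changes the intensity used, the correction and an added offset together, and their shares were not tested. It left 381 lncRNA probes called higher and 363 lower, and the medians of upregulated and downregulated members became 1.15 and -2.75. Under it 1700041M19Rik, 4930553M12Rik, humanlincRNA0728, XLOC_006216 and AK020551 fell short of a log2 difference of 1. The age groups of 1 member then overlapped, Gm43356, and with 75th percentile scaling those of AK039610 did. With a floor of 20 the calls were 750 and 967 and the median of the upregulated members 2.21, and humanlincRNA0728 (0.76) was no longer called. Requiring a signal on all 10 arrays left 886 lncRNA probes called higher and 973 lower, with 6 upregulated and 19 downregulated members. The other 5 upregulated members and Gm2694, XLOC_006216 and AK020551 were no longer tested. With the GAPDH end ratio as a covariate 896 probes were called higher and 846 lower. Without the fold limit 4040 were called higher and 3677 lower. With each array left out, 1061 to 1461 were called higher, 1203 to 1776 lower, 10 to 11 upregulated members and 22 downregulated members, with medians of 2.70 to 2.99 and -3.49 to -3.25. The loss was humanlincRNA0728, no longer tested without any one aged heart. The slide comparison gave 747 to 4268 lncRNA probes and 0 to 4 members. Without young replicates 1, 2, 3 and 4 it gave 747, 2120, 1829 and 2029 lncRNA probes, and the first 2 of these fits have a lone heart on slide 1, which by itself lowers the precision. Replicate numbers are shared by different animals, whose deviations correlated at -0.344 to 0.276 for same-numbered hearts, and with the replicate block 1284 probes were called higher and 1549 lower, with 11 and 22 members.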
